A study of Mus musculus with 7 samples.

Results

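Clustered MyoD peaks are binding regions of MyoD in 2-day myotubes that lie in groups. A peak was taken as clustered when at least 2 other summits, the points of highest signal of a peak, lay within 20 kb of its own summit on chromosomes 1 to 19. By this rule 1737 of 10620 peaks on these chromosomes (16.4%) were clustered, of 10756 peaks in the whole list. Clustered peaks within 20 kb of each other were merged into 570 clusters. The members were chosen by the positions of peaks from a single MyoD experiment, so peak number and spacing describe the choice and are not findings. Tag numbers and enrichment come from that same experiment and are given as description, with no test. Expression is a separate measurement that the rule did not use.

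The study profiled mouse primary myoblasts, which are cultured progeny of satellite cells sorted from muscle of mice aged 4 to 6 weeks, and the myotubes that these cells form after 48 hours in differentiation medium with 5% horse serum. Of its 7 samples, each the only one of its group, 3 are used here. They are chromatin immunoprecipitation sequencing (ChIP-seq) of MyoD in 2-day myotubes, RNA of myoblasts in growth medium and RNA of 2-day myotubes. Both RNA samples carried a retroviral empty vector, and the label of the MyoD sample names no vector. That label points to an earlier sample, and no MyoD antibody is among those in the labels' protocol. The labels do not state the strain of the mice, how many animals a culture came from or what the control library was. In the MyoD library were 8637045 tags, of which 4049890 were unique, and the control had 9129012, of which 4371189 were unique. RNA values are FPKM (sequenced fragments relative to transcript length and to the size of the library), with 1 value per gene and condition, so no replicate spread could be measured and the absolute depth is unknown. All 8 myotube marker genes were called higher in 2-day myotubes, against 6.52% of all tested genes. Of 6 tested myoblast markers 1 was called higher and 3 lower, and 3 lay at a cluster. Of the marker lists for fibroblasts, immune cells, endothelium and adipocytes, only 3, 3, 1 and 3 genes were tested. None lay at a cluster, against 6.07% of all tested autosomal genes, and none was called higher. These lists are too short to compare with such shares. The summed FPKM of these lists in growing myoblasts and 2-day myotubes was 90.4 and 15.4 for fibroblasts, 32.6 and 27.2 for immune cells, 4.71 and 0.431 for endothelium, and 18.1 and 6.83 for adipocytes.

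MyoD is a basic helix-loop-helix transcription factor that commits cells to skeletal muscle. It binds DNA as a dimer with an E protein at the E-box, CANNTG, and prefers CAGCTG and CAGGTG. Id proteins bind E proteins but lack a DNA-binding region, so they hold MyoD partners away from DNA. Muscle regulatory regions often hold several E-boxes, and many muscle genes have an upstream enhancer in addition to their promoter.

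Sequences of the peaks are not shown, since coordinates in the peak list are of the mm9 build and no genome of that build was used. What can be shown are promoters of genes with a clustered summit near the start. A clustered summit lay between 250 bp before and 50 bp after the 5′ locus end in 39 tested genes with a RefSeq promoter, of which 6 (15.4%) were called higher and 5 (12.8%) lower in 2-day myotubes by the authors. Of all 15966 tested genes 6.52% were called higher and 17.3% lower. For 22 of the 39, the locus and the RefSeq gene differed in length by at most 100 bp, and 8 of these were called. The promoters of 6 of the 8 hold CAGCTG or else the letters CAGGTG, which read CACCTG on the other strand, and they are printed to show where these E-box letters lie, from 250 bases before to 50 after the start, 5′ to 3′ on the gene's strand. They are RefSeq sequences of GRCm38.p6, a later build than that of the peaks, and capitals mark the E-box letters named.
Chrng promoter, chr1:87205561-87205860, plus strand: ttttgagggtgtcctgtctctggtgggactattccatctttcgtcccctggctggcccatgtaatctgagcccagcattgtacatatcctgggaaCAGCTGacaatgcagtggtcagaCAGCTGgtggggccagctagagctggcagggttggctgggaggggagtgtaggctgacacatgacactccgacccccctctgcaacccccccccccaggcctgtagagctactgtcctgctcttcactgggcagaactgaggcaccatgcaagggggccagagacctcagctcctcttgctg
Cacna1s promoter, chr1:136052561-136052860, plus strand: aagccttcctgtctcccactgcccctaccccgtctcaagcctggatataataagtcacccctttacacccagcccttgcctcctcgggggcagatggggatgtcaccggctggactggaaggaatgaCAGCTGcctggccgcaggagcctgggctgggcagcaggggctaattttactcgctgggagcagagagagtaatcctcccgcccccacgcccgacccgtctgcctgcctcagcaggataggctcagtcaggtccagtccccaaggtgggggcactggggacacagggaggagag
Mybpc1 promoter, chr10:88605103-88605402, minus strand: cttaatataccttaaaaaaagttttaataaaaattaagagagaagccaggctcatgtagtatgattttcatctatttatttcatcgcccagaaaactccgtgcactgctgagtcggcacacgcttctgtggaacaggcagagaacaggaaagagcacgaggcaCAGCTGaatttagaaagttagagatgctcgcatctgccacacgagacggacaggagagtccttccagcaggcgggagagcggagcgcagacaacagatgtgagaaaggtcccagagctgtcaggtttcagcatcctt
Tnip2 promoter, chr5:34513930-34514229, minus strand: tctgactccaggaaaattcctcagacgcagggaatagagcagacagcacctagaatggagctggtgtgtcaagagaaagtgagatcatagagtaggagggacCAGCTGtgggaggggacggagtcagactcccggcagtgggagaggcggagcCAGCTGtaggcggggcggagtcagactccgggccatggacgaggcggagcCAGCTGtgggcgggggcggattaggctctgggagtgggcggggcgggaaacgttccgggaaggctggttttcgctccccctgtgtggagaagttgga
Slc25a24 promoter, chr3:109122899-109123198, plus strand: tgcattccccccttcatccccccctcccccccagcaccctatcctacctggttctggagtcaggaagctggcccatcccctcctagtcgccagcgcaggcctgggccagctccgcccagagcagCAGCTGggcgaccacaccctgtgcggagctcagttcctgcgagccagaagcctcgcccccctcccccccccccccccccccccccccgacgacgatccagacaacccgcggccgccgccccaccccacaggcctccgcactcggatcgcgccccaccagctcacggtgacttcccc
Srsf3 promoter, chr17:29032410-29032709, plus strand: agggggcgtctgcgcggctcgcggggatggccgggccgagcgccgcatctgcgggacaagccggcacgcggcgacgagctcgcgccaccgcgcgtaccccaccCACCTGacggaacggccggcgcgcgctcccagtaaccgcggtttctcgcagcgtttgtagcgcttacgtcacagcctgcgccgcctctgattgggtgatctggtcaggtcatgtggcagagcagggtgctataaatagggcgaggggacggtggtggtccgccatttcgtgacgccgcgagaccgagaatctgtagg
The first 3 genes were called higher and the last 3 lower. Chrng encodes the gamma subunit of the fetal acetylcholine receptor of muscle. Its summit lay 148 bp before the 5′ locus end, between CAGCTG matches that begin 155 and 132 bp before it. In Tnip2, which encodes an inhibitor of NF-kappaB signalling, the promoter holds 3 CAGCTG matches, and the summit distance of 47 bp equals that of the one nearest the start. The Cacna1s promoter has 1 match 123 bp before the start, beside a summit at 88 bp. The Mybpc1 match lies 87 bp before the start, and the summit 6 bp after it. The Slc25a24 match at 126 bp lies 21 bp from the summit position. Srsf3 has CACCTG 147 bp before the start and its summit 39 bp after it. The promoters of Adssl1, called higher, and Sema3e, called lower, hold none of these letters. A match is a description of letters in this window and shows no site.

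Over all 39 promoters, CAGCTG was present in 15 (38.5%, exact 95% interval 23.4 to 55.4), against 16.1% of 27025 RefSeq promoters of the same length. CAGGTG or CACCTG was present in 9 (23.1%), against 20.0% of all promoters. Any CANNTG, which includes both, was present in 33 (84.6%), against 72.1% of all. Each motif was counted on both strands, and the letters overlap: every CAGCTG or CAGGTG is also a CANNTG. The 39 promoters were chosen for a MyoD summit in the window. Promoters with a summit outside a cluster were not compared, so whether these shares are particular to clustered peaks was not tested.

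Most clusters held few peaks. Their peak numbers and spacing are limited by the rule, which merged clustered peaks only within 20 kb of each other. No gap between neighbouring member summits could therefore exceed 20 kb. The spans and gaps of clusters are given as description and are not a finding. Of the 570, 286 held 3 member peaks, 88 held 4, 39 held 5 and 24 held 6 or more. A further 115 held 1 member and 18 held 2, because the neighbours that made a peak a member did not themselves have 2 summits in reach. In the 437 clusters of 3 or more peaks, the first and last summits lay a median of 15240 bp apart (quartiles 9547 and 19518), and the widest span was 80686 bp. Neighbouring member summits were a median of 5033 bp apart (quartiles 1954 and 9838.5, 1167 gaps). The closest pair of summits was 309 bp apart, and 112 gaps (9.60%) were under 1 kb. Within these clusters the peak with the most tags held a median of 43.2% of the tags of its cluster, with a range of 18.4% to 79.0%. This share depends on the number of peaks, which was 3 in 286 clusters. The highest peak held a median of 2.71 times the tags of the lowest.

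Clustered peaks held more tags than peaks standing alone, with a slightly lower median enrichment over background. Tags per peak had a median of 18 (quartiles 11 and 28) in clustered peaks, 15 (10 and 23) in the 2848 peaks with 1 other summit within 20 kb, and 12 (8 and 19) in the 6035 with none. By number of other summits the median was 17 with 2, 21 with 3, 19 with 4, 23.5 with 5 and 34 with 6 or more, the last from only 27 peaks. Median fold enrichment over the regional background, the authors' value for each peak, went the other way, at 14.2, 14.8 and 15.9. Median peak length was 501, 447.5 and 399 bp. Clustered peaks thus held 21.3% of all tags in autosomal peaks. Peaks with 41 or more tags made up 10.9% of clustered and 3.71% of other peaks. Among these the median fold enrichment was higher in clustered peaks, 14.4 against 12.2, and it was 13.6 against 12.9 at 21 to 40 tags, but 13.7 against 14.7 at 11 to 20 tags and 15.6 against 17.9 at 7 to 10 tags. A false discovery rate of 5% or less was given by the authors to 428 clustered peaks (24.6%, exact 95% interval 22.6 to 26.7), to 19.2% of those with 1 other summit and to 17.8% of those with none. The interval covers counting error only, and neighbouring peaks of 1 call are not independent. This rate does not simply follow peak strength. An unclustered peak near Olfml2b had 105 tags, a fold enrichment of 22.1 and a rate of 50%. A clustered one near Gadd45b had 92 tags, a fold enrichment of 16.6 and a rate of 22.2%. At the 20 kb limit, the 100 peaks just inside had their second nearest summit at 19048 to 19993 bp and a median of 16 tags. The 100 just outside had it at 20018 to 21154 bp and a median of 15 tags.

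**Figure D1:**
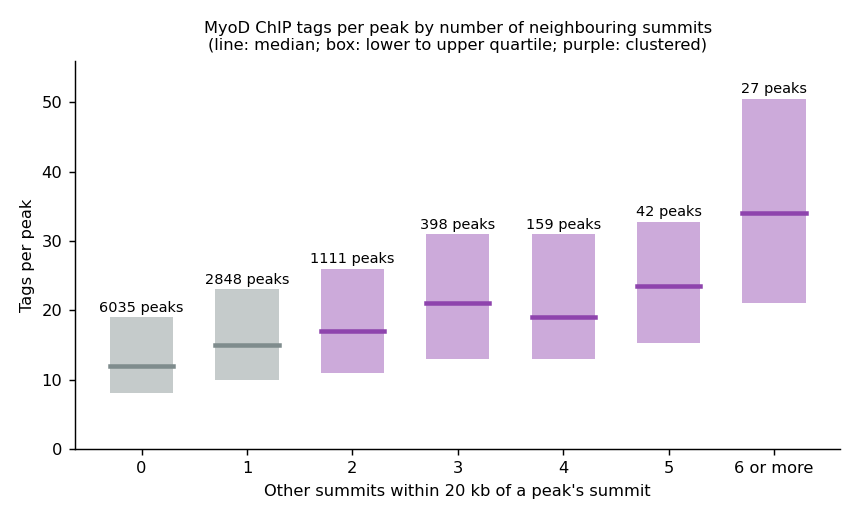
Tags per MyoD peak (vertical axis) by the number of other summits within 20 kb (horizontal axis), with lines for medians and boxes from the lower to the upper quartile. Medians are 12 with no neighbour, 15 with 1, 17 with 2 and 34 with 6 or more, and the boxes of adjacent groups overlap.

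Clustered peaks also lay somewhat closer to genes. A locus of the expression table covered the summit for 66.6% of clustered peaks, 64.3% of those with 1 other summit and 57.9% of those with none, and the share within 10 kb of a locus was 82.7%, 79.8% and 74.4%. Close to gene starts the order turned: 6.07% of clustered summits were within 1 kb of a 5′ end known from RefSeq, against 7.53% and 8.74%. The share of clustered peaks by chromosome ran from 2.38% on chromosome 14, with 4 of 168 peaks, to 23.0% on chromosome 17. Chromosome 11, which carries Myh3, Tcap and Chrnb1, had the most clusters, 52.

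The cluster with the most peaks and the most tags was that of Myod1 itself. Its 13 summits lie at chr7:53556584-53633631 in mm9, a span of 77.0 kb that runs from the Otog locus over the region before Myod1 into the gene. The cluster held 1153 tags, 61.3% of them in a single peak at chr7:53631485-53633948 with 707 tags, a fold enrichment of 10.3 and a false discovery rate of 0%. No other peak of the list came near, the next holding 231 tags. That peak is 2464 bp long and covers most of the Myod1 locus (chr7:53631843-53634462). The other peaks of the cluster are far lower, down to 8 tags. Myod1 was at 895 FPKM in growing myoblasts and 293 in 2-day myotubes, and this fall was not called (log2 fold change -1.61, q = 0.154 in the authors' deposited table). Otog, which encodes an inner ear matrix protein, was low in both, at 2.82 and 1.51 FPKM, and not called.

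**Figure D2:**
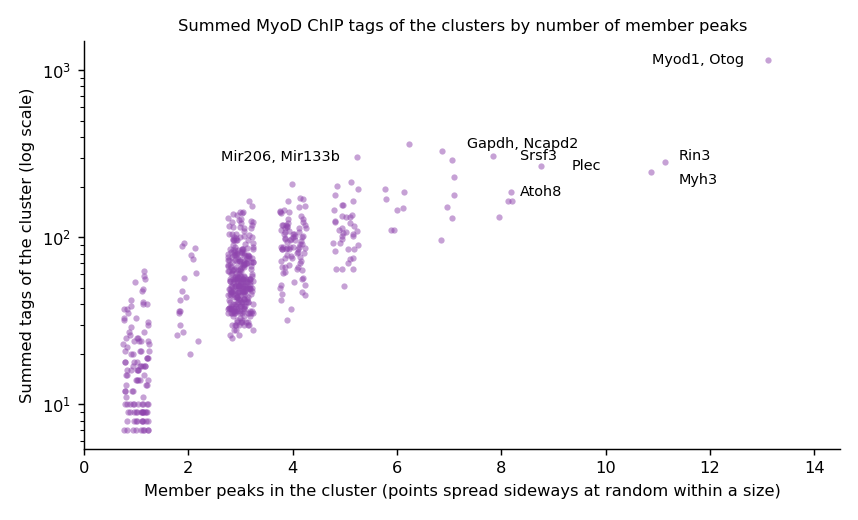
Summed tags of each of the 570 clusters (vertical axis, log scale) against its number of member peaks (horizontal axis), 1 point per cluster with random sideways spread within a size. The Myod1 cluster stands highest with 1153 tags over 13 peaks, and the Mir206 and Mir133b cluster reaches 302 tags with 5 peaks.

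A cluster of muscle microRNAs was among the 5 with the most tags. It lies at chr1:20657797-20681612 in mm9, with 5 peaks and 302 tags, of which 190 were in 1 peak of 3242 bp. That long peak had a fold enrichment of only 5.48, against a median of 14.2 in clustered peaks. MicroRNAs silence target RNAs through their seed, bases 2 to 8, in capitals here to show that the arms of miR-206 and miR-133b have different seeds (mature sequences from RefSeq, GRCm38.p6).
mmu-miR-206-5p: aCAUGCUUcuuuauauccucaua
mmu-miR-206-3p: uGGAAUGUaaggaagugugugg
mmu-miR-133b-5p: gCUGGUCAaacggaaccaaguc
mmu-miR-133b-3p: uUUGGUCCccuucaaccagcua
Their precursors are listed at 20669090 to 20669163 for Mir206 and 20672849 to 20672968 for Mir133b on chromosome 1, both between the third and the fourth summit. The RNA libraries measured Mir133b at 183 FPKM in growing myoblasts and 264 in 2-day myotubes, which was not called, and Mir206 is listed at 0 in both and was not tested. The Mir133b value is for a locus of 119 bp, and mature microRNAs were not measured.

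Other clusters among the largest lie at genes of varied function. The cluster at Rin3 and Slc24a4 on chromosome 12 had 11 peaks and the widest span, 80.7 kb. Rin3, a guanine nucleotide exchange factor for Rab5, was at 43.4 and 43.8 FPKM. A cluster of 9 peaks and 269 tags covers the locus of Plec, the cytoskeletal linker plectin, at 155 and 158 FPKM. Srsf3, a splicing factor, has a cluster of 8 peaks and 307 tags and was called lower, from 189 to 62.0 FPKM. Atoh8, another basic helix-loop-helix factor, has 8 peaks and was called lower, from 64.5 to 9.46 FPKM. At 7 peaks and 330 tags, a cluster on chromosome 6 covers Nop2 and Gapdh and lies between Chd4 and Ncapd2. Of the genes tested there only Ncapd2, a condensin subunit, was called, lower from 37.8 to 4.85 FPKM, while Gapdh was at 47.8 and 84.2 FPKM. Reads of Gapdh could be shared with its many processed copies, so its level is uncertain. The Tspan9 cluster and the one from Kcnab3 to Kdm6b on chromosome 11, each of 8 peaks and 164 tags, had no gene called. Of the 9 clusters with 8 or more peaks, 8 had a gene within 10 kb. A gene was called lower at 2 of these, Srsf3 and Atoh8, and higher at 1, the Myh3 cluster. Of the 7 clusters with 7 peaks, those near Ncapd2 and 4831426I19Rik had a gene called lower and those near Myl1 and Pdp1 a gene called higher, the one in the long chromosome 8 locus counted calls of both kinds, and 2 had no gene within 10 kb.

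The table of expression listed 1459 genes in or within 10 kb of a cluster, of which the authors tested 914. The authors' status marks another 526 as not tested, 8 as low in data and 11 as failed. Of the tested, 128 (14%, exact 95% interval 11.8 to 16.4) were called higher in 2-day myotubes, that is marked significant by the authors at q of at most 0.05. The background was 6.52% of all tested genes. Lower calls went to 126 genes (13.8%, 11.6 to 16.2), against a background of 17.3%. The median log2 ratio of 2-day myotubes to growing myoblasts, with a pseudocount of 1 on the FPKM and over genes with a mean of at least 1 FPKM, was -0.06 at clusters and -0.37 over all tested genes. Fold changes over all tested genes were not centred on 0, with a median of -0.41. After this median was subtracted, with the errors implied by the authors' test statistics, 20.1% of genes at clusters were higher and 8.64% lower, against 9.94% and 10.2% of all tested genes. Calls at clusters were then 70.0% higher rather than 50.4%, and over all tested genes 49.3% rather than 27.3%. Seen from the calls, 13.1% of the autosomal genes called higher and 4.80% of those called lower lay at a cluster, against 6.07% of all tested autosomal genes.

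Genes with a peak but no cluster stood between in higher calls and in the median log2 ratio, but not in lower calls. Among 5205 such genes 8.97% were called higher and 17.7% lower, with a median log2 ratio of -0.34. Among 8949 genes with no peak within 10 kb the values were 4.28%, 17.6% and -0.41. These groups also differ in length: the median locus was 75.9 kb at clusters, 48.4 kb with a peak only and 18.3 kb with none. The median of mean FPKM in these groups was 22.5 at clusters, 18.96 with a peak only and 14.8 with none. The part of length and of expression level in the shares of calls was not tested. Within every class of locus length the order of the higher calls was the same. In loci of up to 20 kb, 16.3% of genes at clusters, 9.47% with a peak only and 4.51% with no peak were called higher. From 20 to 50 kb the shares were 19.1%, 9.42% and 4.51%, and from 100 to 200 kb they were 15.1%, 8.01% and 4.57%. From 50 to 100 kb and above 200 kb the intervals of genes at clusters (9.70% and 10.04%) cover the values of genes with a peak only (8.25% and 9.46%). Intervals cover counting error only, genes are not replicates, and the difference between these groups was not tested.

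**Figure D3:**
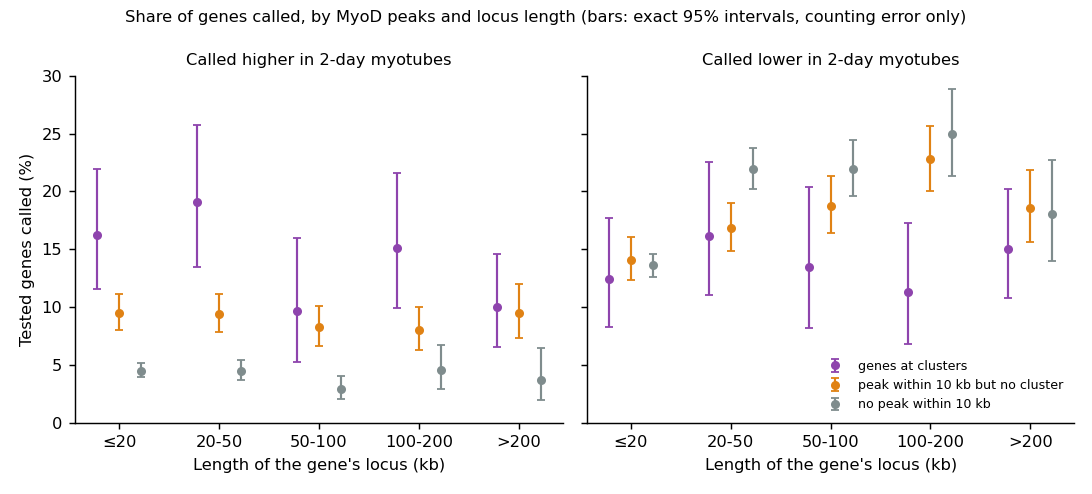
Percent of tested genes called higher (left) and lower (right) in 2-day myotubes by the authors, by length of the gene's locus (horizontal axis), for genes at clusters, genes with a peak only and genes with no peak within 10 kb. Points are shares and bars exact 95% intervals of counting error, and genes at clusters are the highest of the 3 groups in each class of the left panel, from 9.70% to 19.1%.

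The share of higher calls also differed by the number of summits, though not in an unbroken rise. In loci of at most 200 kb it was 4.30% with no summit in the locus or within 10 kb, 8.10% with 1, 10.3% with 2, 14.2% with 3, 11.4% with 4 and 24.1% with 5 or more. Lower calls went from 17.6% with none to 13.3% with 5 or more. These groups differ in other ways too. The median locus was 17048 bp with no summit and 124825 bp with 5 or more, and the median of mean FPKM 15.3 and 29.0. Their part in the shares was not tested. By the size of the largest cluster at a gene, higher calls were 10.1% of 129 genes at clusters of 1 or 2 member peaks, 14.3% of 328 at 3, 18.9% of 127 at 4, 26.2% of 61 at 5 or 6, and 13.3% of 30 at 7 or more. The last share has an exact interval of 3.76 to 30.7, too wide to set it apart from the others.

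A shared locus limits these counts. The table gives merged loci, and 443 of the 914 genes (48.5%) share theirs with another tested gene, against 30.4% of all tested genes. One locus of 4435365 bp on chromosome 8 holds 70 of the 914, among them Acta1, Cdh15, Cdt1, Gins2 and Cbfa2t3, and their own distance to a cluster is not known from the table. Of the 914 genes, 471 did not share a locus, and 17.0% of these were called higher.

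**Figure D4:**
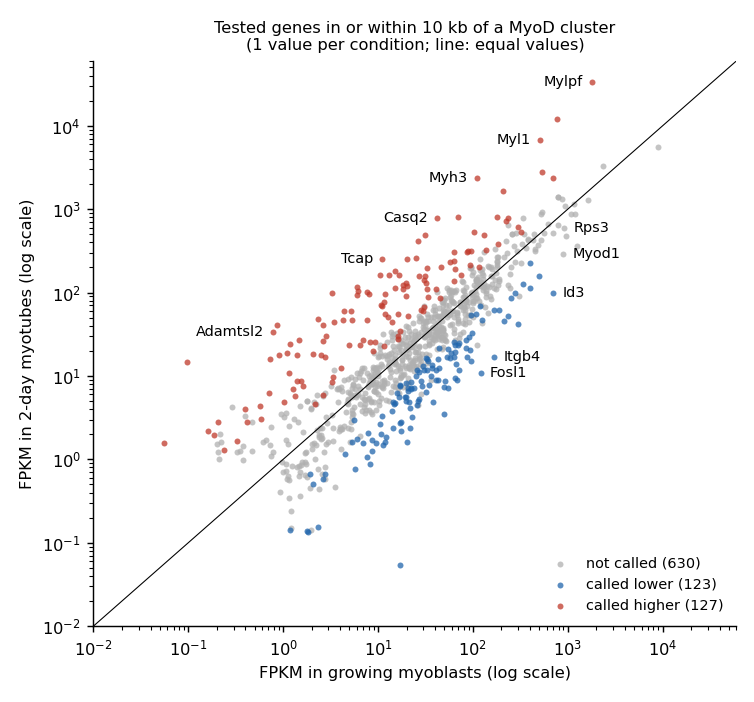
FPKM in growing myoblasts (horizontal axis) and in 2-day myotubes (vertical axis), both on log scales, for the 880 tested genes at clusters above 0 in both conditions, 1 point per gene, coloured by the authors' call. Called genes lie on both sides of the line of equal values, 127 higher and 123 lower, with Mylpf at the top right at 33258 FPKM in myotubes.

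Genes of the contractile apparatus at clusters were nearly all called higher. Of 53 tested sarcomere genes 14 lay at a cluster and 13 of these were called higher, with none lower. That uniformity was not limited to clusters, since 26 of 28 with a peak only and 9 of 11 with no peak were also called higher. The median log2 ratio was 3.46 for sarcomere genes at clusters and 3.58 for all in the list. Mylpf, the regulatory light chain of fast myosin, rose from 1816 to 33258 FPKM. Its cluster has 3 summits, 2.10 and 1.05 kb before the 5′ locus end and 0.121 kb after it, with 37, 31 and 29 tags. Myl1, the alkali light chain of fast myosin, rose from 512 to 6696 FPKM with 7 summits, 3 before the gene, 2 in it and 2 beyond its 3′ end. All 7 were of modest height, from 12 to 37 tags.

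Myh3, the myosin heavy chain of embryonic muscle, rose from 111 to 2362 FPKM (log2 fold change 4.41, q = 6.39e-11 in the authors' deposited table). Its cluster has 11 peaks and 245 tags, from 10 to 45 tags per peak. The highest peak held 18.4% of the tags, the lowest such share among clusters of 3 or more peaks. That share can be lower in a cluster of many peaks than in one of 3. The summits run from 19.03 kb before the 5′ end to 42.5 kb after it, well past the gene of 24.0 kb. Sco1, a copper chaperone of cytochrome oxidase just before Myh3, rose from 16.9 to 34.9 FPKM. Reads of Myh3 could be shared with the similar myosin genes beside it, so its level is uncertain.

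Tcap, the titin cap of the Z-disc, rose from 11.04 to 250.7 FPKM at a cluster of 5 peaks and 98 tags. Mybpc1, the slow myosin-binding protein C, rose from 31.4 to 484 FPKM, and Lmod3, a nucleator of thin filaments, from 15.1 to 181. Des, the muscle intermediate filament desmin, went from 539 to 2785 FPKM, and Flnc, the muscle filamin, from 96.0 to 314. Acta1, skeletal actin, rose from 764 to 11909 FPKM within the long chromosome 8 locus. Tmod4, a cap of thin filaments, was the only one of the 14 not called, at 1.79 and 4.97 FPKM.

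**Figure D5:**
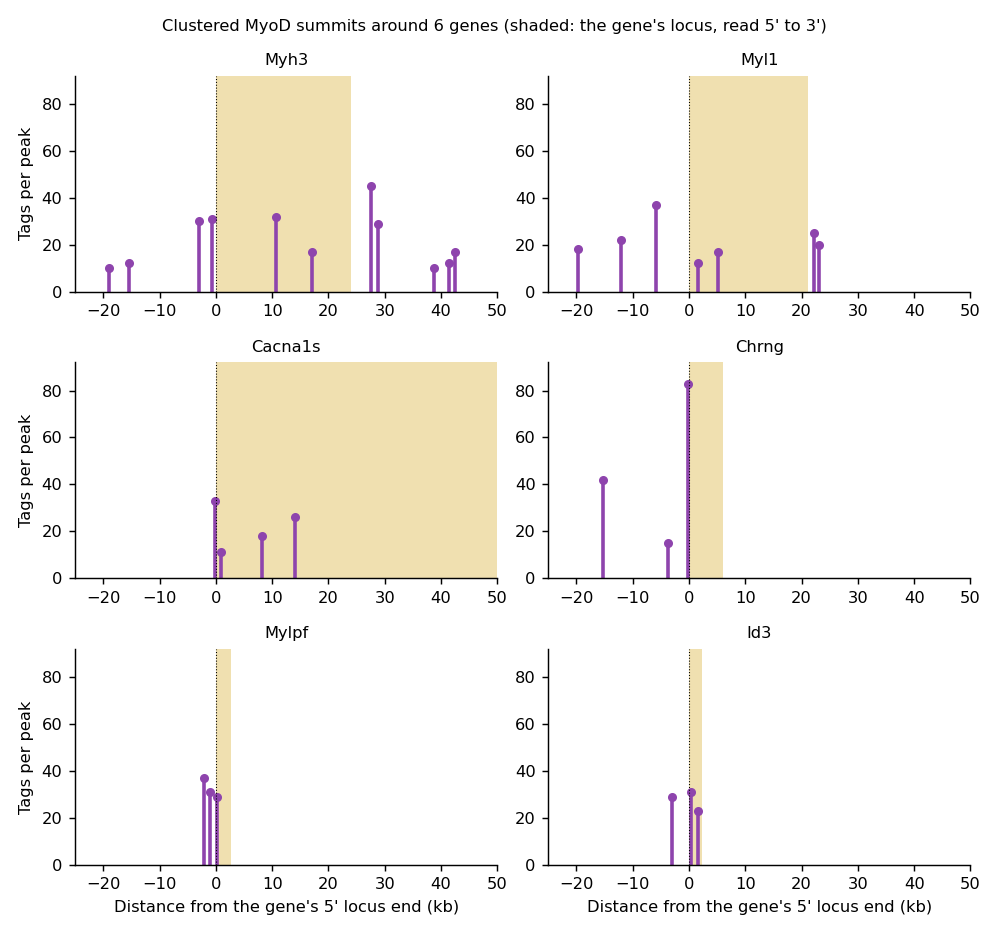
Tags of each clustered MyoD peak (vertical axis) by distance of its summit from the 5′ locus end (horizontal axis, kb, read along the gene) for Myh3, Myl1, Cacna1s, Chrng, Mylpf and Id3, with the locus shaded and cut off at 50 kb for Cacna1s. Myh3 has 11 summits on both sides and inside, while Mylpf has 3 close to its 5′ end and Chrng has its highest, of 83 tags, at the 5′ end.

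Excitation-contraction coupling turns the electrical signal of the muscle membrane into calcium release. Of 22 tested genes of this list 7 lay at a cluster and 6 of these were called higher, as were 10 of 14 with a peak only and 1 of 1 with no peak. At clusters the median log2 ratio was 3.54, against 2.85 for the list. Cacna1s, the voltage sensor subunit of the L-type calcium channel, rose from 26.1 to 411 FPKM. Its 4 summits lie 0.088 kb before the 5′ end and 1.00, 8.25 and 14.1 kb after it, with 33, 11, 18 and 26 tags. The partner subunits rose too, Cacnb1 from 18.4 to 124 FPKM and Cacng1 from 68.8 to 811. Tmem38a, a cation channel of the sarcoplasmic reticulum, rose from 20.2 to 252 FPKM with 5 clustered summits, all in the gene or just past its end. Casq2, a calcium store protein, rose from 41.7 to 777 FPKM, although its cluster has 1 member peak of only 9 tags. Kcnj12, an inward rectifier potassium channel, rose from 0.569 to 4.36 FPKM. Stac3, an adaptor of the calcium channel, was at 95.9 and 194 FPKM and not called, though it was higher once fold changes were centred.

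Acetylcholine receptor subunits of the neuromuscular junction had clusters at their starts, and 1 of them was called. Of 12 tested junction genes, 4 were called higher and 1 lower. At a cluster lay 5, of which Chrng alone was called, higher from 137 to 327 FPKM (log2 fold change 1.26, q = 0.00494 in the authors' deposited table). Its 3 summits lie 15.2, 3.79 and 0.148 kb before its 5′ end with 42, 15 and 83 tags. The same 3 summits are also within 10 kb of Chrnd, which lies just before Chrng and was at 99.3 and 179 FPKM. Chrna1 has 99 tags at a summit 0.093 kb before its start, the tenth highest peak of the list, and was at 327 and 387 FPKM. Chrnb1, with 43 tags at its start, was at 181 and 215 FPKM. Dok7, which activates the kinase MuSK, was at 38.4 and 69.4 FPKM with 5 clustered summits, not called as deposited and higher after centring.

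Of 29 tested entries for myogenic regulators, 8 were called higher and 7 lower. At a cluster lay 8 entries, with Tead1 counted under both of its gene identifiers, and the 2 called ones were higher. Tead4, a DNA-binding factor of the TEAD family, rose from 15.2 to 113 FPKM with a cluster of 4 peaks and 151 tags. Mef2d, a MADS-box partner of MyoD, rose from 63.2 to 137 FPKM with 5 peaks and 166 tags. Mef2a, with 3 peaks, was at 47.9 and 55.6 FPKM, and Hdac4, a repressor of Mef2 factors, at 7.77 and 5.36.

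Id1 and Id3, the Id proteins at clusters, fell together. Id3 went from 704 to 98.2 FPKM (log2 fold change -2.84, q = 1.41e-07 in the authors' deposited table). Its 3 summits lie 2.93 kb before the 5′ end and 0.363 and 1.60 kb after it, with 29, 31 and 23 tags. Id1 fell from 299.8 to 41.6 FPKM, also with 3 peaks, holding 71 tags in all. They were the 2 members at a cluster of 17 tested antagonists of MyoD, of which 7 were called lower in all.

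For the other lists the counts at clusters stand beside 6.07% of all tested autosomal genes at a cluster. In muscle metabolism 17 of 20 tested genes were called higher, among them 9 of 9 with a peak only and 6 of 8 with no peak. At a cluster lay 3, of which 2 were called higher: Mb, the oxygen carrier myoglobin, from 209.5 to 1654 FPKM, and Adssl1, the muscle adenylosuccinate synthase, from 20.4 to 119. Of 18 tested dystrophin complex and sarcolemma genes 9 were called higher, 7 of 10 with a peak only and 2 of 4 with no peak. None of the 4 at clusters was called, including Itga7, the laminin receptor of muscle, at 119.6 and 184.8 FPKM, and Utrn, utrophin, at 26.7 and 22.4. Of 19 tested satellite cell genes 12 were called lower. Of the 3 at clusters, Sdc4, a heparan sulfate proteoglycan, was called lower, from 255 to 85.2 FPKM, and lost the call after centring. Of 39 tested genes of mitosis and replication 37 were called lower, but only Cdt1 and Gins2 counted at a cluster, both through the long chromosome 8 locus. None of the 25 tested ribosomal protein genes was called, including the 3 at clusters, such as Rps3 at 912 and 599.7 FPKM. This family has many near-identical copies. Of 32 tested actin and adhesion genes, 5 were called higher and 9 lower, and 7 lay at clusters: Itgb6 and Pdlim3 were called higher, Myh9 lower, and Zyx, zyxin, at 303 and 90.8 FPKM was not called (q = 0.0535 in the authors' deposited table). Of 19 tested fusion genes 6 were called higher and 5 lower, and neither of the 2 at a cluster was called. Of 16 for cell cycle exit 3 were called higher and 1 lower, with no call for the 2 at a cluster. Of 21 for extracellular matrix 13 were called lower, but not the 1 at a cluster. Of 26 tested genes of growth factor signalling 4 were called higher and 10 lower, and 4 lay at a cluster, with 1 called lower. Of 13 tested muscle ubiquitin ligases 5 were called higher, and 2 lay at a cluster, with 1 called higher.

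The largest rises at clusters were not all of known muscle structure. Among called genes whose higher FPKM was 10 or more and whose lower was 0.1 or more, the 12 largest rises were those of 2310043M15Rik, Adamtsl2, Asb2, Tcap, Gm12352, Myh3, Ramp1, 2210020M01Rik, Cbfa2t3, Ablim3, Casq2 and Mylpf. Adamtsl2, a secreted glycoprotein of the matrix, rose from 0.783 to 33.9 FPKM, with 3 clustered summits 17.5 to 33.4 kb after its 5′ end. Asb2, the substrate receptor of a ubiquitin ligase, rose from 3.30 to 99.6 FPKM at a cluster of 5 peaks and 136 tags. Ramp1, an accessory protein of the calcitonin receptor family, rose from 1.17 to 24.1 FPKM. Ablim3, an actin-binding LIM protein, rose from 6.02 to 116 FPKM. The transcript 2310043M15Rik, at the top, went from 0.853 to 40.4 FPKM. It shares its locus with at least 1 other tested gene, as do Gm12352, 2210020M01Rik and Cbfa2t3. The cluster at 2210020M01Rik has 1 member peak, as has that at Casq2, and the cluster at Ramp1 has 2.

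The 12 largest falls were Nhlrc4, Gm2862, Fosl1, Itgb4, Kif18b, Epha1, Ncapd2, Runx2, Spc24, Dlx3, Gm20485 and Id1. Fosl1, an AP-1 subunit, fell from 120.5 to 10.9 FPKM at a cluster of 3 peaks and 39 tags. Itgb4, a laminin-binding integrin, fell from 169 to 16.9 FPKM with a cluster of 1 member peak. Runx2, the regulator of bone formation, fell from 54.5 to 7.08 FPKM, and Dlx3, a homeobox factor of skin and bone, from 11.3 to 1.50. Kif18b and Spc24, a mitotic kinesin and a kinetochore protein, fell from 21.9 to 2.38 and from 68.6 to 8.997 FPKM. Nhlrc4, Gm2862 and Gm20485 lost their calls after centring. These 3 and Fosl1, Kif18b, Epha1 and Runx2 share a locus with other tested genes.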

How the data were processed

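MyoD peaks were called with MACS, version 1.3.7 in the submitters' processing notes, on mm9. Per the file headers, the tag size was 36, the band width 150, the model fold 16, the p-value threshold 1.00e-05 and the effective genome size 1.87e+09. Per the file headers, the tags of a peak are a count, its score is 10 times the negative log10 of its p-value, its enrichment is a fold ratio to regional background, and its false discovery rate is a percent. The list comes from 1 call on 1 library, so peaks have no replicate.

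The authors deposited FPKM, log2 fold changes, test statistics, p-values and q-values in the layout of a Cuffdiff gene table. Cuffdiff and CASAVA 1.7.0 are in the submitters' processing notes. The sources used here do not state the aligner, the annotation release, the use of strand or the way duplicates were combined. With 1 value per condition no test of replicates could be made, and a call is the authors'.

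A summit is at peak start + summit - 1. A gene was at a cluster when its locus in that table, widened by 10 kb, overlapped the cluster. Genes at 0 in a condition (34 of the 914) were counted in calls but not in fold changes. Gene starts and strands came from RefSeq by symbol, for 571 of the 914 genes. Intervals are exact Clopper-Pearson at 95%, and scripts ran in Python 3.11.15 with pandas 2.3.3 and scipy 1.17.1. The cluster search was checked on simulated data. Genes were named where they lay at the 10 clusters with the most peaks (ties by summed tags) or the 5 with the most tags, were in a gene list, or were among the 12 largest rises or falls. The members, lists and rules were chosen with earlier results of these data known. Alternatives covered the window, the number of neighbours, the peak filters, the gene window, the locus filters, centring and the low-value filter. Histone ChIP (4 samples) was not analysed here. A result at 1 cluster without a gene is not reported here.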

Additional observations from a re-analysis of the deposited data

How the results depend on the processing

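The share of peaks that were clustered depended on the rule. It was 7.42% with 10 kb between summits, 37.4% with 50 kb, 5.89% with at least 3 other summits, 3.42% (70 peaks) among peaks with a false discovery rate of at most 5%, 13.5% among peaks with at least 14 tags and 19.7% for chains of at least 3 peaks, a setting chosen after seeing the data. The median tags of a clustered peak were 16 with 50 kb, 21 with at least 3 other summits, 36 at a false discovery rate of at most 5% and 25 with at least 14 tags. Genes at clusters called higher made up 16.5% with at least 3 other summits, 17.1% with at least 14 tags and 11.6% within 50 kb of a cluster. They were 17.0% without shared loci and 20.1% after centring. At a false discovery rate of at most 5% they were 11% of 100 genes, with an exact interval of 5.62 to 18.8. That interval covers the 6.52% of all tested genes. This filter does not simply keep the strongest peaks. It drops a peak near Olfml2b with a score of 476.84 and a rate of 50%. It also drops a clustered one near Gadd45b with a score of 403.74 and a rate of 22.2%. In the other 7 of 13 settings the share stayed within the main interval. The share called lower was 8.64% after centring and stayed within the interval in 12 of 13 settings. The median log2 ratio turned from -0.06 to 0.035 with at least 14 tags and was 0.0088 without shared loci. The cause of these shifts was not tested. Taking genes by a clustered summit within 10 kb instead of by the cluster's span gave the same 914 genes, as the merging of summits within 20 kb makes them equal. This setting is counted among those within the interval, although it could not differ. Of 167 named genes with a finite fold change, 9 lost and 6 gained a call after centring, and 0 changed direction among the calls. No paired analysis was possible because each group holds 1 sample. Depth limits the peaks: a median clustered peak rests on 18 tags, and the median false discovery rate of clustered peaks is 10.99%.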

Other observations

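Of the 570 clusters, 80 (14%) had no gene of the expression table within 10 kb. Their nearest tested gene lay a median of 43.9 kb away, with a range of 11.9 to 648.87 kb, and 47 of the 80 had one within 50 kb. The 78 distinct nearest genes included 8 called higher (10.3%) and 6 called lower (7.69%), against 6.52% and 17.3% of all tested genes. A pair of such clusters with 7 peaks each lie 14.8 kb from Hsf2bp, at 10.5 and 23.4 FPKM, and 12.2 kb from Dlg1, a membrane scaffold, at 51.4 and 46.8 FPKM in growing myoblasts and 2-day myotubes, neither of them called. Rbm38, an RNA-binding protein of the p53 pathway, is the nearest gene of a cluster of 5 peaks 23.1 kb away and was called higher, from 64.9 to 191 FPKM. Igsf3, 31.3 kb from a cluster of 4 peaks, was called lower, from 10.8 to 2.65 FPKM. Rbm38 and Igsf3 were chosen after their values were seen.

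A high tag number did not require a cluster. Of the 12 peaks with the most tags 5 were clustered: those at Myod1, in the long chromosome 8 locus, at Mir206, at Plec and at Chrna1. The peak with 212 tags near Mybph, which encodes a myosin-binding protein, had no other summit within 20 kb, and the peak with 162 tags near Actc1, cardiac actin, had 1. Their fold enrichments were 7.2 and 7.7.

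Chromosome 14 held 168 peaks and only 4 clustered ones, in 2 clusters, while chromosome 13 held 484 peaks with 69 clustered and chromosome 15 held 448 with 65.

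At 25 clusters a gene called higher and a gene called lower lay within 10 kb of the same cluster. Of the 462 clusters with a tested gene, 126 had a gene called higher, 114 had one called lower and 247 had none called. Of all tested genes 6.52% were called higher and 17.3% lower. The counts of clusters depend on how many genes each one touches, and 220 clusters had 2 or more tested genes. The 8 clusters in the long chromosome 8 locus, with its 70 tested genes, each count calls of both kinds.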
